A study of Mus musculus with 6 samples.

Results

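Interleukin 6 (IL-6) family cytokines and the receptor chains they share were examined in sorted cells of the inflamed mouse colon, called fibroblasts in the study. The 10 genes, picked by symbol, were the ligands *Il11*, *Il6*, *Lif* and *Clcf1* and the receptor chains *Il11ra1*, *Il6ra*, *Il6st*, *Lifr*, *Osmr* and *Cntfr*, and all 10 were found among the 20327 gene symbols of each library. Tags from the 5′ side of polyA transcripts were sequenced by 5′Tag-seq and counted per gene in 3 EGFP-Negative and 3 EGFP-Positive libraries, named IL-11- and IL-11+ fibroblasts below. All 6 libraries came from C57BL/6 mice of genotype *Il11-Egfp*, male as the methods state and between 9 and 15 weeks old, that drank 1.5% dextran sulfate sodium (DSS), which injures the colon epithelium, for 5 days, and the colon was taken on day 7. Colon cells negative for CD45, CD31, EpCAM and Ter119 were sorted into cells with and without EGFP. The groups were thus split by reporter signal and shared genotype, strain, treatment and time. No fibroblast marker was used in this sort, and the name fibroblasts follows the study. Most muscle, glial and interstitial cell markers were higher in the IL-11- libraries, as given below, so the comparison need not be one of fibroblasts alone. No untreated mice were part of the comparison.

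The reporter is a bacterial artificial chromosome with *Egfp* inserted in *Il11*, so EGFP marks cells that use the *Il11* promoter of the transgene. The methods name 3 mice, and each group has a library numbered 1, 2 and 3. Totals were 1057170, 1078179 and 1169817 tags (IL-11- replicates 1 to 3) against 1046538, 1022851 and 1049048 (IL-11+ replicates 1 to 3). Levels are given as normalized CPM, which are tags divided by the library's tags in tested genes times its TMM scaling factor, per 1000000. The floor of detection was set at 3 tags, which is 2.46 to 3.18 normalized CPM. Floors and intervals of shares cover counting error only, because amplified tags are not independent molecules.

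Most cytokines of this family signal through receptor complexes that contain gp130, encoded by *Il6st*. IL-6 and IL-11 first bind a receptor chain of their own, encoded by *Il6ra* and *Il11ra1*, LIF uses gp130 together with the LIF receptor, oncostatin M also uses a complex with OSMR, and CLCF1 acts through the chain encoded by *Cntfr*. These complexes activate JAK kinases, STAT3 and, through SHP2, ERK, SOCS3 dampens the signal at gp130, and in the colon the family is known for roles in epithelial repair, colitis and tumor growth.

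The filter asked for 10 or more tags in 3 or more libraries and left 9334 genes, of which 321 (3.44%) were called higher and 595 (6.37%) were called lower in IL-11+ fibroblasts. A call needed a fold change above 2 and an adjusted p below 0.05. All 10 genes of the family passed the filter. The ligands *Il11*, *Lif* and *Clcf1* were called higher, the receptor chain *Il6ra* was called lower, and the other 6 genes were not called. By the adjusted p alone the same 3 genes were higher and the same 1 was lower, against 6.84% higher and 8.7% lower over all tested genes. All IL-11+ libraries stood above all IL-11- libraries for 3 genes (14.5% of all tested genes) and below them for 3 genes (16.7% of all tested genes). The 4 ligands had a median log2 fold change of 2.10 and the 6 receptor chains one of -0.25, compared with -0.01 over all tested genes. Both the ligands called higher and the ligand median include *Il11*, whose reporter the cells were sorted on.

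**Figure D1:**
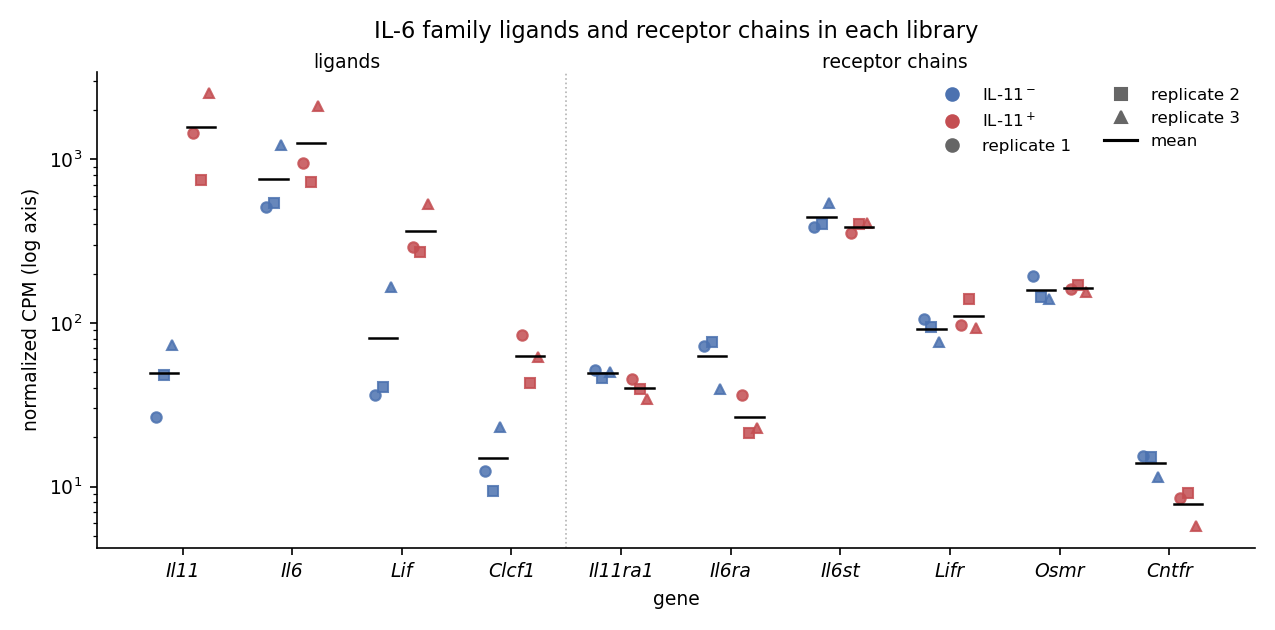
Normalized CPM (log axis) of the 4 ligands and 6 receptor chains in each IL-11- (blue) and IL-11+ (red) library, with a symbol for each replicate number and a line at the mean of 3 libraries. *Il11*, *Lif* and *Clcf1* lie higher in all IL-11+ libraries, and *Il11ra1*, *Il6ra* and *Cntfr* lie lower in all of them.

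*Il11* (chromosome 7, 4772373 to 4782859 in GRCm38, minus strand) is the gene whose reporter the cells were sorted on, so that its difference is a check of the sort. It counted 28, 51 and 89 tags (IL-11- replicates 1 to 3) against 1357, 732 and 2658 (IL-11+ replicates 1 to 3). The groups were far apart, although *Il11* tags were above the floor in every IL-11- library and IL-11+ replicates 2 and 3 differed widely. Mean levels were 49.3 ± 23.2 (IL-11-) and 1572 ± 903 (IL-11+) normalized CPM, with the SD of 3 libraries, a 31.5-fold difference (95% interval 17.8 to 55.9). Transcripts of the reporter can add to the *Il11* counts, since their 5′ ends may come from that gene.

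*Lif* (chromosome 11, 4257557 to 4272514, plus strand) encodes leukemia inhibitory factor, which signals through the LIF receptor and gp130. It counted 38, 43 and 203 tags (IL-11- replicates 1 to 3) against 275, 268 and 559 (IL-11+ replicates 1 to 3). IL-11- replicate 3 stood apart from the other 2 IL-11- libraries but below every IL-11+ library, and replicate 3 was the highest library in each group. Mean levels were 81.2 ± 74.1 (IL-11-) and 366 ± 145 (IL-11+) normalized CPM (SD, n = 3), a 4.44-fold difference (log2 fold change 2.15, SE 0.398, Benjamini-Hochberg adjusted p = 0.000825 in edgeR's quasi-likelihood test). Within the pairs of the same replicate number the log2 difference was 2.97, 2.72 and 1.67. Without IL-11- replicate 3 the log2 fold change of *Lif* was 3.23.

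*Clcf1* (chromosome 19, 4214238 to 4223490, plus strand) encodes cardiotrophin-like cytokine factor 1. It counted 13, 10 and 28 tags (IL-11- replicates 1 to 3) against 80, 42 and 65 (IL-11+ replicates 1 to 3). Every IL-11+ library was above every IL-11- library, with few tags in the IL-11- group. Mean levels were 14.9 ± 7.13 (IL-11-) and 63.1 ± 21.1 (IL-11+) normalized CPM (SD, n = 3), a 4.12-fold difference (log2 fold change 2.04, SE 0.323, Benjamini-Hochberg adjusted p = 0.000179 in edgeR's quasi-likelihood test). Of the 50-nt windows in the first 300 nt of its annotated transcripts, 34.6% also occur in the gene model AC109138.7, so that its count is less certain.

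*Il6* (chromosome 5, 30013114 to 30019981, plus strand) encodes IL-6, which gives the family its name. It counted 539, 577 and 1496 tags (IL-11- replicates 1 to 3) against 895, 719 and 2206 (IL-11+ replicates 1 to 3). The groups overlapped, replicate 3 was the highest library in each group, and within every pair of the same number the IL-11+ library was the higher. Mean levels were 762 ± 404 (IL-11-) and 1261 ± 738 (IL-11+) normalized CPM, with the SD of 3 libraries.

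The fitted difference of *Il6* was 1.65-fold (95% interval 1.01 to 2.69) and was not called (log2 fold change 0.72, SE 0.336, Benjamini-Hochberg adjusted p = 0.173 in edgeR's quasi-likelihood test). In a fit blocked on the replicate number, its SE was 0.138 and its adjusted p was 9.78e-05 from the same test, past the adjusted p alone and under the fold-change threshold, as it was without a filter (adjusted p = 0.000506). The log2 difference within pairs 1, 2 and 3 was 0.88, 0.42 and 0.78. The estimate of *Il6* moved with replicate 3. Without IL-11- replicate 3 its log2 fold change was 1.23 and it was called (Benjamini-Hochberg adjusted p = 0.0138 in edgeR's quasi-likelihood test), and without IL-11+ replicate 3 it was 0.14 (adjusted p = 0.819).

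The makeup of the ligand tags differed between the groups. Among the tags of the 4 ligands, not scaled by transcript length, *Il6* took 87.2% (Wilson 95% interval 84.4% to 89.6%), 84.7% (81.8% to 87.2%) and 82.4% (80.6% to 84.1%) in IL-11- replicates 1, 2 and 3. In IL-11+ replicates 1, 2 and 3 it took 34.3% (32.5% to 36.2%), 40.8% (38.6% to 43.1%) and 40.2% (38.9% to 41.5%). *Il11* took between 4.53% and 7.49% of these tags in IL-11- and between 41.6% and 52.1% in IL-11+ libraries. Since the cells were sorted on the *Il11* reporter, a larger *Il11* share lowers the *Il6* share by construction, and the *Il6* level itself was higher within every pair.

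Leaving out *Il11*, the gene of the reporter, the *Lif* share of the tags of the other 3 ligands was 6.44%, 6.83% and 11.8% in IL-11- replicates 1, 2 and 3. It was 22.0%, 26.0% and 19.8% in IL-11+ replicates 1, 2 and 3, with Wilson 95% intervals from 18.3% to 28.8%. The *Lif* shares of the groups did not overlap. The *Il6* share of the same tags was 86.6% to 91.6% in IL-11- and 69.9% to 78.0% in IL-11+ libraries, and the *Clcf1* share was 1.59% to 2.2% and 2.3% to 6.4%.

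**Figure D2:**
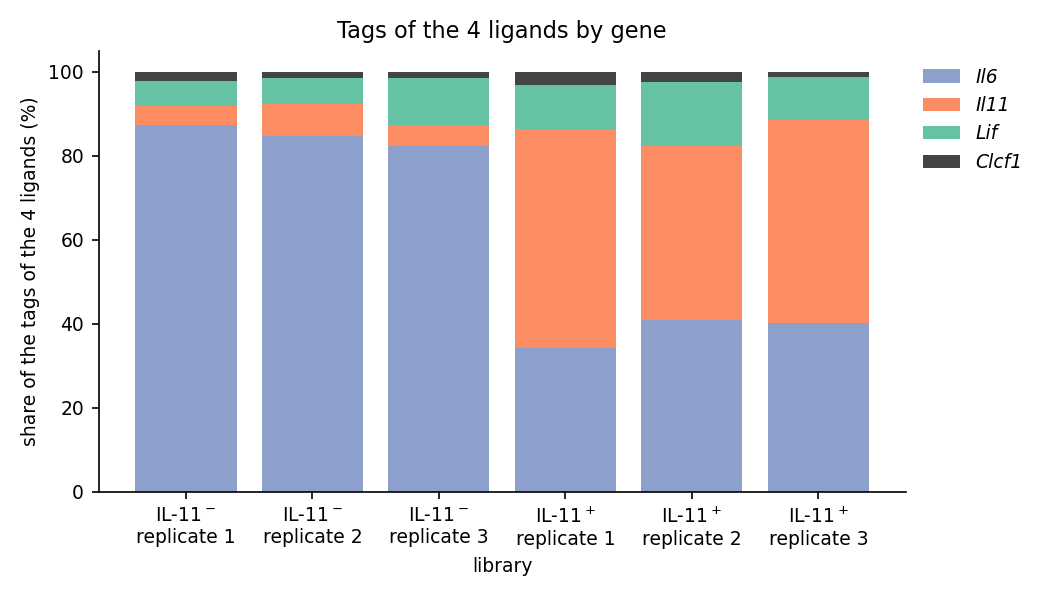
Share (%) of the tags of the 4 ligands that each gene took in each library, as stacked bars from 0. *Il6* took 82.4% to 87.2% in the 3 IL-11- libraries and 34.3% to 40.8% in the 3 IL-11+ libraries, where *Il11*, the gene of the sort reporter, took more.

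Besides these ligands, *Ctf1*, *Cntf* and *Il27* did not pass the filter and were not tested. *Ctf1* had at most 2 tags, *Cntf* at most 5 and *Il27* at most 1 in any library. *Osm*, *Ctf2*, *Ebi3* and *Il31* were not analysed here.

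Among the receptor chains, *Il6ra* (chromosome 3, 89864059 to 89913196, minus strand), the binding chain for IL-6, was the gene called lower. It counted 76, 81 and 48 tags (IL-11- replicates 1 to 3) against 34, 21 and 24 (IL-11+ replicates 1 to 3). The groups did not overlap, but IL-11- replicate 3 was closer to the IL-11+ libraries than the other 2. Mean levels were 62.8 ± 20.3 (IL-11-) and 26.7 ± 8.08 (IL-11+) normalized CPM, with the SD of 3 libraries. The difference was 2.34-fold (log2 fold change -1.22, SE 0.285, Benjamini-Hochberg adjusted p = 0.00541 in edgeR's quasi-likelihood test). Tested against a fold change of 1.5 with glmTreat, its adjusted p was 0.0692, and it was not called.

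*Il6st* (chromosome 13, 112464070 to 112510086, plus strand) encodes gp130, the chain shared by the complexes of IL-6, IL-11, LIF, oncostatin M and CLCF1. It counted 405, 426 and 660 tags (IL-11- replicates 1 to 3) against 335, 394 and 427 (IL-11+ replicates 1 to 3). The groups overlapped, and IL-11- replicate 3 was the highest library. At 443 ± 85.7 and 387 ± 28.3 normalized CPM (SD, n = 3), its log2 fold change was -0.20 (95% interval -0.56 to 0.17), so that a 2-fold difference in either direction lay outside the interval.

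*Il11ra1* (chromosome 4, 41699989 to 41769474, plus strand) encodes the binding chain for IL-11. It counted 54, 49 and 61 tags (IL-11- replicates 1 to 3) against 43, 39 and 36 (IL-11+ replicates 1 to 3). The IL-11+ libraries were below the IL-11- libraries by a small margin, at 49.3 ± 2.79 and 39.8 ± 5.63 normalized CPM (SD, n = 3). It was not called, with a log2 fold change of -0.31 (95% interval -0.77 to 0.15, Benjamini-Hochberg adjusted p = 0.406 in edgeR's quasi-likelihood test).

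*Il11ra2*, a near-identical copy of *Il11ra1* on the same chromosome (42656355 to 42661893, minus strand), counted 15, 13 and 20 tags (IL-11- replicates 1 to 3) against 4, 7 and 5 (IL-11+ replicates 1 to 3). Among 50-nt windows at the start of *Il11ra1* transcripts, 33.6% also occur in *Il11ra2* or *Gm13305*, and for *Il11ra2* this share was 100%, so that the division of tags between the copies is uncertain. Summed over both copies, they counted 69, 62 and 81 tags (IL-11- replicates 1 to 3) against 47, 46 and 41 (IL-11+ replicates 1 to 3), and these sums were not tested.

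*Cntfr* (chromosome 4, 41657498 to 41697089, minus strand), the receptor chain for CLCF1 and ciliary neurotrophic factor, counted 16, 16 and 14 tags (IL-11- replicates 1 to 3) against 8, 9 and 6 (IL-11+ replicates 1 to 3). All IL-11+ libraries were lower, and *Cntfr* passed the filter only through the IL-11- libraries. Its log2 fold change of -0.83 had a 95% interval, not adjusted over genes, from -1.67 to just under 0, and it was not called (Benjamini-Hochberg adjusted p = 0.187 in edgeR's quasi-likelihood test).

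*Lifr* (chromosome 15, 7090614 to 7197489, plus strand) and *Osmr* (chromosome 15, 6813577 to 6874969, minus strand) encode the signaling partners of gp130 for LIF and oncostatin M. *Lifr* counted 110, 100 and 93 tags (IL-11- replicates 1 to 3) against 91, 138 and 97 (IL-11+ replicates 1 to 3). *Osmr* counted 204, 153 and 170 tags (IL-11- replicates 1 to 3) against 152, 169 and 162 (IL-11+ replicates 1 to 3). Both genes overlapped between the groups. The log2 fold change was 0.26 (95% interval -0.16 to 0.67) for *Lifr* and 0.03 (95% interval -0.34 to 0.39) for *Osmr*, whose sign turned with scaling by library size only (-0.053) and without IL-11- replicate 2 (-0.051), IL-11- replicate 3 (-0.080) or IL-11+ replicate 2 (-0.0065).

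**Figure D3:**
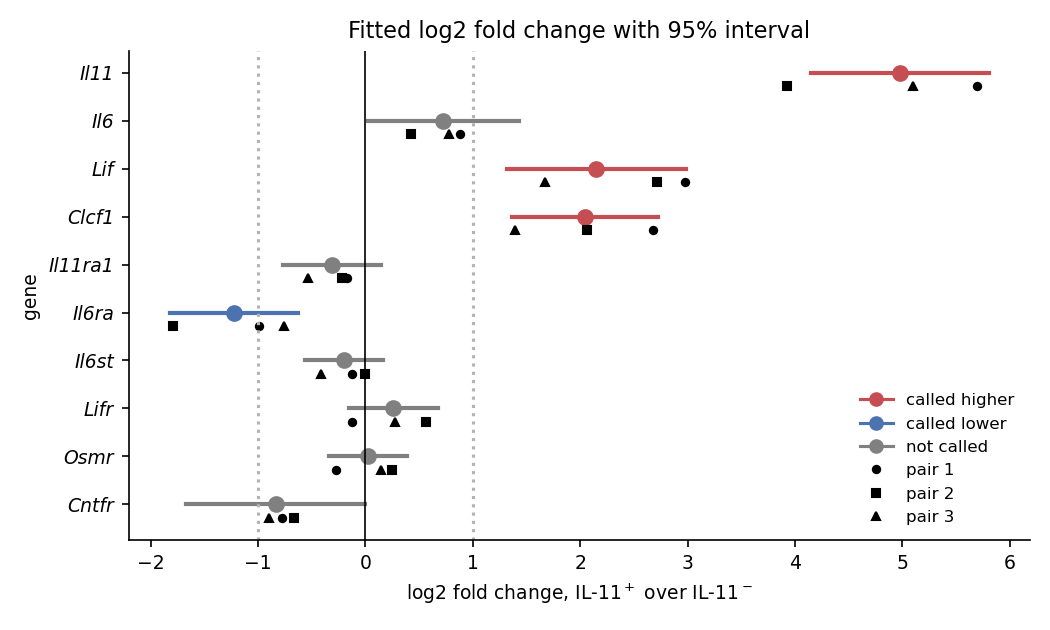
Fitted log2 fold change of IL-11+ over IL-11- fibroblasts (points) with 95% intervals (bars), colored by call, and the log2 difference within each pair of the same replicate number (small black symbols); dotted lines mark a 2-fold change. The intervals of *Il6st*, *Il11ra1*, *Lifr* and *Osmr* lie within the dotted lines and include 0, whereas that of *Lif* starts at 1.31.

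Of the other receptors of the family, 2 passed the filter, and both were called lower. Both passed it through the IL-11- libraries alone, so that the filter favored this direction. *Il31ra*, which pairs with OSMR to bind IL-31, counted 15, 16 and 14 tags (IL-11- replicates 1 to 3) against 7, 3 and 1 (IL-11+ replicates 1 to 3) (log2 fold change -1.84, SE 0.524, Benjamini-Hochberg adjusted p = 0.0213 in edgeR's quasi-likelihood test). The log2 fold change of *Il11ra2* was -1.40 (SE 0.423, Benjamini-Hochberg adjusted p = 0.0297 in that test). Both calls were lost under several alternatives. Neither was called with glmTreat or with DESeq2, where the adjusted p was 0.053 for *Il31ra* and 0.115 for *Il11ra2*, nor without IL-11+ replicate 3, where it was 0.0763 and 0.0706 from edgeR's quasi-likelihood test. Without a filter *Il11ra2* was not called (adjusted p = 0.0511), so that 1 of these receptors was lower. Without IL-11+ replicate 1, *Il31ra* had a log2 fold change of -2.70 and *Il11ra2* was not called (adjusted p = 0.0941), and without IL-11+ replicate 2, *Il31ra* was not called (adjusted p = 0.0698). With the filter kept as it was for all 6 libraries, *Il11ra2* was also not called without each IL-11- replicate in turn (adjusted p from 0.0512 to 0.0955), nor was *Il31ra* without IL-11- replicate 1 (0.066) or 2 (0.0784). *Il27ra* and *Csf3r* had at most 3 tags and *Il12rb2* at most 1 in any library, and *Il12rb1* was not analysed here.

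No tested JAK kinase or adaptor downstream of gp130 was called. The lists of pathway genes are short, and their counts stand beside 3.44% higher and 6.37% lower over all tested genes, or 6.84% and 8.7% by the adjusted p alone. Blocking on the replicate number changed no count of called genes in any list. By the adjusted p alone it gave 5 in place of 4 higher STAT3 targets, 5 in place of 4 higher fibroblast markers, and 1 higher and 3 lower in place of 0 and 2 among the SOCS and PIAS genes. Of the 3 tested JAK kinases, 0 were called by edgeR's quasi-likelihood test and 0 had an unadjusted p under 0.05. *Jak1*, the main kinase at gp130, counted 411, 337 and 404 tags (IL-11- replicates 1 to 3) against 352, 451 and 335 (IL-11+ replicates 1 to 3), with a log2 fold change of 0.14 (SE 0.175). The groups of *Jak1*, *Jak2* and *Tyk2* all overlapped, with log2 fold changes of 0.62 (SE 0.364) for *Jak2* and -0.26 (SE 0.378) for *Tyk2*. *Jak2* was called without IL-11+ replicate 3 (log2 fold change 1.02, Benjamini-Hochberg adjusted p = 0.0217 in edgeR's quasi-likelihood test).

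Of the 5 tested STAT factors, 1 was higher and 0 were lower, by the adjusted p alone 1 was higher and 1 was lower, and the median log2 fold change was -0.41. *Stat3*, the main transcription factor of this pathway, counted 322, 341 and 372 tags (IL-11- replicates 1 to 3) against 325, 299 and 351 (IL-11+ replicates 1 to 3). Its groups overlapped, with a log2 fold change of 0.07 (SE 0.156) that turned to -0.0092 with scaling by library size only. *Stat5a* was the factor called higher, with 17, 17 and 16 tags (IL-11- replicates 1 to 3) against 46, 48 and 31 (IL-11+ replicates 1 to 3) (log2 fold change 1.48, SE 0.291, Benjamini-Hochberg adjusted p = 0.0014 in edgeR's quasi-likelihood test).

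Among 12 SOCS and PIAS genes, which encode inhibitors of JAK and STAT signaling, 0 were higher and 1 was lower, a share close to that of all tested genes. *Socs1*, the gene called lower, counted 30, 31 and 35 tags (IL-11- replicates 1 to 3) against 5, 11 and 11 (IL-11+ replicates 1 to 3) (log2 fold change -1.66, SE 0.334, Benjamini-Hochberg adjusted p = 0.0017 in edgeR's quasi-likelihood test). *Socs3*, the feedback inhibitor that binds gp130, counted 1004, 917 and 673 tags (IL-11- replicates 1 to 3) against 483, 361 and 467 (IL-11+ replicates 1 to 3). The IL-11+ libraries of *Socs3* were below all IL-11- libraries. It was 1.79-fold lower (log2 fold change -0.84, SE 0.203, Benjamini-Hochberg adjusted p = 0.00693 in edgeR's quasi-likelihood test), past the adjusted p alone but under the fold-change threshold. Without IL-11- replicate 3 *Socs3* passed both thresholds (-1.065), with 3 genes of the list lower, and without IL-11+ replicate 2 its adjusted p was 0.0601. With the filter kept as it was for all 6 libraries, its quasi-likelihood adjusted p was 0.0526 without IL-11- replicate 1. With glmTreat, the adjusted p of *Socs3* was 0.297. Without IL-11+ replicate 1, 1 gene of the list was called higher. With 10 tags required in all 6 libraries *Socs1* did not pass the filter, and 0 genes of the list were lower.

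None of the 7 tested SHP2 and ERK adaptors was called by edgeR's quasi-likelihood test, and 1 of them had an unadjusted p under 0.05. That gene was higher and also passed the adjusted p alone. *Ptpn11*, which encodes SHP2, had a log2 fold change of 0.08 (SE 0.17), its groups overlapped, and its sign turned with scaling by library size only (-0.0028) and without IL-11- replicate 2 (-0.032). Among 5 genes that take part in shedding of receptors from the cell surface, 1 was higher and 0 were lower. *Rhbdf2*, which encodes the ADAM17 partner iRhom2, counted 26, 18 and 13 tags (IL-11- replicates 1 to 3) against 70, 41 and 34 (IL-11+ replicates 1 to 3) (log2 fold change 1.50, SE 0.342, Benjamini-Hochberg adjusted p = 0.00461 in edgeR's quasi-likelihood test). *Adam17*, a protease that sheds the IL-6 receptor, had a log2 fold change of 0.65 (SE 0.202, Benjamini-Hochberg adjusted p = 0.034 in that test) and was under the fold-change threshold, and *Adam10* had 0.35 (SE 0.164, adjusted p = 0.176). *Adam17* did not pass the adjusted p with library size only (0.074), DESeq2 (0.0956) or 10 tags in all 6 libraries (0.0527), nor without IL-11- replicate 1 (0.0882), 2 (0.0726) or 3 (0.14) or IL-11+ replicate 2 (0.182).

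Genes known as targets of STAT3 were called in both directions. Of 17 tested targets, 4 were higher and 3 were lower, by the adjusted p alone 4 were higher and 6, with *Socs3* among them, were lower, and the median log2 fold change was 0.01. The higher targets were *Saa3* (log2 fold change 3.11, SE 0.347) and *Lcn2* (2.68, SE 0.482), which encode secreted acute-phase proteins, *Timp1* (2.03, SE 0.198), an inhibitor of metalloproteinases, and *Hif1a* (1.22, SE 0.190), a factor of the response to low oxygen. The lower targets were *Ccnd1* (-1.92, SE 0.458), which encodes cyclin D1 and passed the filter through the IL-11- libraries alone, and the transcription factor genes *Myc* (-1.06, SE 0.198) and *Junb* (-1.01, SE 0.162). The largest Benjamini-Hochberg adjusted p of these 7 genes in edgeR's quasi-likelihood test was 0.00651, for *Ccnd1*.

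*Saa3* counted 2062, 2335 and 806 tags (IL-11- replicates 1 to 3) against 15835, 15721 and 9439 (IL-11+ replicates 1 to 3), and *Lcn2* had 179, 110 and 26 and then 897, 683 and 253. Replicate 3 was the lowest of its group for both genes, opposite to *Il6*, *Lif* and *Il11*, for which replicate 3 was the highest of its group. Without IL-11- replicate 1 the log2 fold change of *Lcn2* was 3.33. *Myc* and *Junb* stood close to the fold-change threshold. *Myc* fell under it without IL-11- replicate 1 (-0.97) and without IL-11+ replicate 3 (-0.98), and *Junb* without IL-11- replicate 2 (-0.96), IL-11+ replicate 1 (-0.98) or IL-11+ replicate 3 (-0.99), and 1 of these targets was called lower without IL-11- replicate 1 or 2. With the filter kept as it was for all 6 libraries, *Ccnd1* was not called without IL-11- replicate 2 (adjusted p = 0.0535). *Junb* was also under the fold threshold with no filter (-0.97), and *Myc* was not called with glmTreat (adjusted p = 0.0536). Near the 5′ end, 9.22% of the windows of *Hif1a* occur in another gene model, and 1.64% of those of *Saa3* occur in *Saa1*.

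The genes most like *Il11* and *Il6st* in their pattern over the 6 libraries were found among 4994 tested genes, by the root-mean-square difference of log2 normalized CPM centred over the libraries. For *Il11* these were *Inhba* (0.687), which encodes an activin subunit, and the metalloproteinase genes *Mmp13* (0.722) and *Mmp10* (0.723). Their log2 fold changes were 3.73, 4.75 and 5.00. Since the cells were sorted on the *Il11* reporter, likeness to *Il11* mainly picks genes with a large difference between the groups. Of the 5′ windows of *Mmp10*, 12.4% occur in *Mmp3*. For *Il6st* they were *Hspg2* (0.0546), *Chd9* (0.0664) and *Tnfrsf1a* (0.0683), which encode perlecan, a chromatin remodeler and a receptor for TNF. Their log2 fold changes were small, at -0.14, -0.21 and -0.23.

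Markers of other cell types differed between the groups too. Of 8 smooth muscle markers, 7 were lower in IL-11+ fibroblasts, and their summed level was 2276, 2776 and 3519 normalized CPM (IL-11- replicates 1 to 3) against 124, 183 and 342 (IL-11+ replicates 1 to 3), with *Myh11* the most abundant. Of 7 pericyte markers, 4 were lower and 0 were higher, with sums of 2681, 2289 and 2105 (IL-11- replicates 1 to 3) against 1076, 903 and 803 (IL-11+ replicates 1 to 3) and *Rgs5* the most abundant. The pericyte markers did not all go the same way. By the adjusted p alone 2 of them were higher, *Abcc9* (log2 fold change 0.66, Benjamini-Hochberg adjusted p = 0.0167 in edgeR's quasi-likelihood test) and *Kcnj8* (0.71, adjusted p = 0.0394). The muscle and pericyte sums did not overlap between the groups, and no marker of either list was at 0 in every IL-11+ library. *Rgs5* made up most of the pericyte sum in IL-11- libraries. It stood at 1863, 1602 and 1478 normalized CPM (IL-11- replicates 1 to 3) against 197, 177 and 196 (IL-11+ replicates 1 to 3). The lower pericyte sum thus mainly reflects this gene and does not describe the whole list.

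All 3 tested markers of interstitial cells of Cajal were lower, with sums of 271, 168 and 258 normalized CPM (IL-11- replicates 1 to 3) against 21.2, 20.3 and 50.5 (IL-11+ replicates 1 to 3) and *Ano1* the most abundant. Of 6 markers of enteric glia, *Gfap* was tested and lower, and it was the most abundant, with sums of 28.6, 41.5 and 38.6 (IL-11- replicates 1 to 3) against 1.06, 0 and 0.954 (IL-11+ replicates 1 to 3). The glial markers *Sox10*, *S100b* and *Erbb3* had 0 tags in every IL-11+ library, and *Gfap*, which was at or under the floor of 3 tags in each of them, was at least 7.05-fold lower. *Kit*, a defining marker of interstitial cells of Cajal, was at 0 in IL-11+ replicates 1 and 2 and had 7 tags in replicate 3. Without IL-11- replicate 1, 1 marker of interstitial cells of Cajal was called lower, and without each IL-11- replicate in turn, with the filter applied to 5 libraries, no marker of enteric glia passed it. With 10 tags required in all 6 libraries, which removes markers near 0, 3 smooth muscle, 2 pericyte and 1 interstitial cell marker were called lower.

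Most muscle, glial and interstitial cell markers and part of the pericyte markers were thus higher in IL-11- libraries, and those near 0 in IL-11+ libraries passed the filter through the IL-11- libraries alone. Fewer cells of a type and less RNA per cell cannot be told apart in these bulk libraries. The part of these markers in the lower level of *Il6ra*, *Il31ra* and *Il11ra2* was not tested. Of 9 fibroblast markers, 2 were higher and 0 were lower, with a median log2 fold change of 0.42 and sums of 22122, 22107 and 24635 normalized CPM (IL-11- replicates 1 to 3) against 42227, 33957 and 30313 (IL-11+ replicates 1 to 3). By the adjusted p alone 4 fibroblast markers were higher and 1 was lower, *Lum* (log2 fold change -0.64, Benjamini-Hochberg adjusted p = 0.0378 in edgeR's quasi-likelihood test), which was below in all IL-11+ libraries. *Dcn* was the most abundant and, with *Col3a1*, made up most of the sum, no fibroblast marker was at 0 in any library, and the part of this list in the higher level of *Lif* and *Clcf1* was not tested. With scaling by library size only or without IL-11- replicate 1, 0 of the fibroblast markers were called higher. With glmTreat or without IL-11+ replicate 1 it was 1, and without IL-11- replicate 3 or IL-11+ replicate 2 it was 3.

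The genes of 3 surface proteins used in the sort had few tags. *Ptprc*, which encodes CD45, had at most 7 tags, *Pecam1*, which encodes CD31, at most 1 and *Epcam* at most 1 in any library. None of the markers of mesothelium, endothelium, leukocytes and red cells passed the filter. Hemoglobin genes were well above the floor in some libraries, with 34, 0 and 141 tags of *Hbb-bs* (IL-11- replicates 1 to 3) against 5, 0 and 9 (IL-11+ replicates 1 to 3). The summed level of red cell markers was 57.3, 0 and 189 normalized CPM (IL-11- replicates 1 to 3) against 10.6, 0 and 11.4 (IL-11+ replicates 1 to 3). Of 7 epithelial markers, *Lgals4* was tested and lower, at 25 to 40 (IL-11-) against 7 to 18 (IL-11+) tags a library. It was not called without IL-11- replicate 3, IL-11+ replicate 1 or IL-11+ replicate 2, nor with glmTreat.

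**Figure D4:**
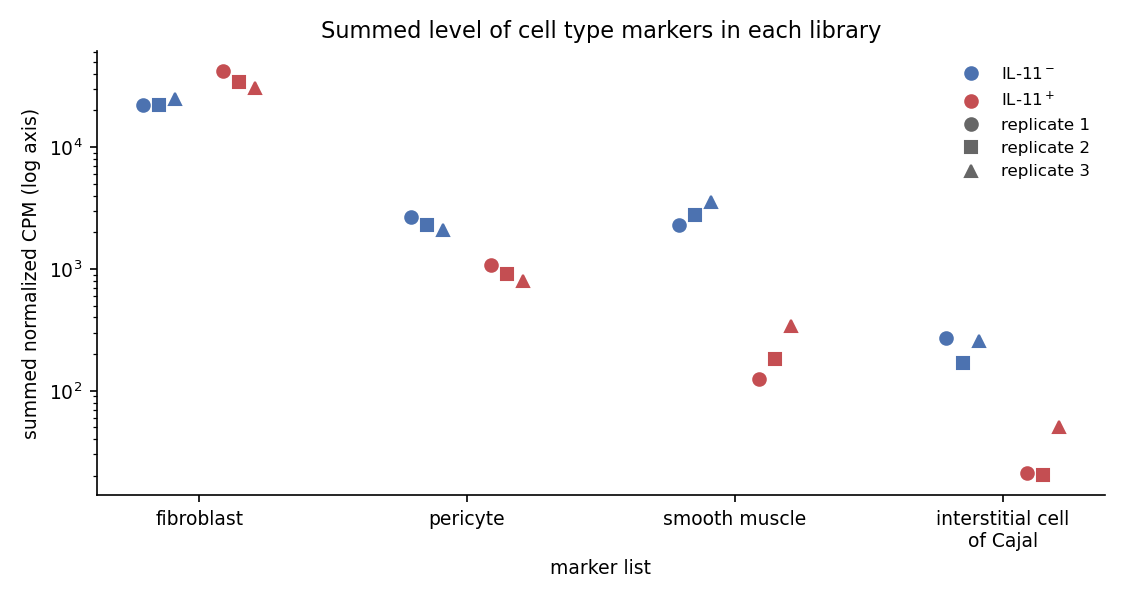
Summed normalized CPM (log axis) of 4 lists of cell type markers in each IL-11- (blue) and IL-11+ (red) library, with a symbol for each replicate number. The sums of muscle, pericyte and interstitial cell markers lie lower in all 3 IL-11+ libraries, the pericyte sum mainly through *Rgs5*, and the fibroblast sum lies higher.

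Because 3 of the ligands were called higher, the 250 bases before each RefSeq start were searched on both strands for motifs. Promoters of 9 of the 10 genes were in the RefSeq table (GRCm38.p6), some genes with several starts, and *Clcf1* was not searched. The letters TGANTCA (AP-1) occurred before a start of *Il11*, *Il6* and *Lif* and of none of the 6 receptor chains, and 6.75% of all 32851 promoters in the table hold them. That share is per promoter, whereas a gene with several starts was counted if any of them matched. Of these ligands, *Il6* was not called higher. TTGCNNAA (C/EBP) occurred before *Il6* (9.56% of all promoters). The letters TGACGTCA (CRE, 1.55% of all promoters), TTCNNNGAA (STAT, 7.02%) and TATAAA (12.4%, the core promoter box) occurred before none of these 9 genes. A match describes letters and does not show that a factor binds there.

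The sequences before *Il11*, *Il6* and *Lif* are shown because they hold the AP-1 letters, which are in capitals, as is the C/EBP match before *Il6*. No matches overlapped. Bases in annotated exons were left out, and of the 2 *Il11* starts the one with a match is shown, which lies inside the longer gene model. They run 5′ to 3′ on the strand of the gene, at chr7:4778142-4778391 (minus) for *Il11*, chr5:30012864-30013113 (plus) for *Il6* and chr11:4257318-4257556 (plus) for *Lif*.
Il11: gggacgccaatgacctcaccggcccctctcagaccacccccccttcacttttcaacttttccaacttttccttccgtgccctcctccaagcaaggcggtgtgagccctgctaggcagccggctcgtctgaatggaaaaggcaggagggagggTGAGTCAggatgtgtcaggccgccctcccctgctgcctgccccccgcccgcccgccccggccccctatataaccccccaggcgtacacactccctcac
Il6: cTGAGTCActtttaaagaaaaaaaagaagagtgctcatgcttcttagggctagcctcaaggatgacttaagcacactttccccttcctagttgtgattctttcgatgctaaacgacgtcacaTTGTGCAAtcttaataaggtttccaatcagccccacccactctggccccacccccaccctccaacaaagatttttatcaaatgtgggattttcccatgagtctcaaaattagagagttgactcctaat
Lif: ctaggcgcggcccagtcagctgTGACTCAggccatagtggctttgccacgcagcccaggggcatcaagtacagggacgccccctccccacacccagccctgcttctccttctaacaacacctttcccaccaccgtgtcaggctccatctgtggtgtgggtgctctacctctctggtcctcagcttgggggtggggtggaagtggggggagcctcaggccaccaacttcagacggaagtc
Counted from the RefSeq start, the matches to TGANTCA began 98 bases before *Il11*, 249 bases before *Il6* and 228 bases before *Lif*. The RefSeq start of *Lif* lies inside the first exon of the GENCODE model, so that its printed stretch of 239 bases ends short of that start.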

How the data were processed

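Tags of 6 libraries (3 per group) were analyzed. According to the methods and the submitters' processing notes, the authors used Cutadapt 1.18 for trimming and Bowtie2 2.2.5 for mapping to mouse RefSeq RNA of build mm10 with only one orientation of reads allowed, and deposited tag counts per gene symbol without normalization. How tags that map to several genes were treated is not given in the sources used here. The genes and lists described here were chosen with earlier results of these data known.

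These counts were filtered (10 or more tags in 3 or more libraries) and compared in R 4.3.3 with edgeR 4.0.16 (TMM, glmQLFit, glmQLFTest, Benjamini-Hochberg adjustment over all tested genes), as a stand-in for the study's TCC with edgeR. The computation was checked on simulated data with the same dispersion for every gene and no replicate effect. That check does not measure error rates in these data. Standard errors are the log2 fold change divided by the root of F. Deviations from the group means correlated between libraries of the same number (r = 0.231, 0.209 and 0.27 over 5064 genes averaging 30 tags or more, which are not independent replicates), so the replicate numbers were taken as pairing the libraries. The labels do not state that libraries of the same number come from the same mouse. The main fit did not use this pairing, and the fit blocked on the replicate number is an alternative. Replicates of a group differed beyond sampling noise.

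Named genes are the 10 genes of the family, every gene of the lists of its other ligands and receptors, the called genes of the other pathway lists, *Jak1*, *Jak2*, *Tyk2*, *Stat3*, *Socs3*, *Ptpn11*, *Adam10* and *Adam17* whatever their values, and for *Il11* and *Il6st* the 3 tested genes outside the lists, with a mean of at least 30 tags, that are most like them. Some genes of these lists are not reported here. Markers were described by list, and those named are examples chosen after seeing the data. Positions come from GENCODE mouse release 21 (GRCm38), and figures were drawn with matplotlib 3.10.9 in Python 3.11.15. Alternatives were RLE, iterative TMM, library size only, DESeq2 1.42.0, no filter, 10 tags in all 6 libraries, the replicate block, glmTreat, and each library left out. A second set of fits without each library, with the filter kept as it was for all 6, was added after seeing the data.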

Additional observations from a re-analysis of the deposited data

How the results depend on the processing

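*Il11*, *Lif* and *Clcf1* were called higher under every alternative run. *Il6ra* was called lower in all but glmTreat against a fold change of 1.5, where its log2 fold change of -1.22 had an adjusted p of 0.0692 from that test and 0 genes of the family were called lower. That test uses a stricter null. The log2 fold change of *Osmr* turned negative with library size only (-0.053) and with 10 tags in all 6 libraries (-0.014), as did those of *Ptpn11* (-0.0028) and *Stat3* (-0.0092) with library size only. The cause was not tested. Genes lower in IL-11+ fibroblasts numbered 256 with 10 tags in all 6 libraries and 378 with glmTreat.

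Over the 6 fits without a library, genes lower numbered 341 to 579 and genes past the adjusted p alone 866 to 1274. The log2 fold change ranged from 0.14 to 1.23 for *Il6*, -0.080 to 0.175 for *Osmr* and -0.032 to 0.154 for *Ptpn11*. With the filter kept as for all 6 libraries, *Osmr* was negative without IL-11- replicate 2 (-0.031), IL-11- replicate 3 (-0.061) or IL-11+ replicate 2 (-0.0091), and *Ptpn11* without IL-11- replicate 2 (-0.012). Without IL-11- replicate 3, *Tyk2* turned to 0.0083 and *Il6* was 1.25 and called. *Cntfr* did not pass the filter with 10 tags in all 6 libraries or, with the filter applied to 5 libraries, without each IL-11- replicate in turn.

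Blocking on the replicate number gave 337 genes higher, 648 lower and 1919 past the adjusted p alone, and apart from *Il6* by the adjusted p alone it changed no call of a gene of the family. At this depth *Cntfr* and *Il31ra* had fewer than 20 tags a library, which limits what can be called.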
